A study of Mus musculus with 71 samples.

Results

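Rag1, Rag2 and Dntt encode the enzymes that cut and diversify antigen receptor genes. The 3 genes were taken by symbol from every gene expression table of the series, 3 of 25579 genes in the 31 samples of the Pax5 experiments and 3 of 24420 genes in the 17 samples of uncommitted lymphoid progenitors and early T cells, so that 48 RNA samples were read. All 3 genes passed the filter on low values in every model, and no member was left out.

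Rag1 and Rag2 form the recombinase that recognises recombination signals beside V, D and J gene segments and cuts the DNA there. The broken ends are then joined by the general machinery of non-homologous end joining, and Dntt, also called terminal deoxynucleotidyl transferase or TdT, adds nucleotides to them without a template. Developing B and T lymphocytes use all 3 proteins, and pro-B cells, which rearrange the immunoglobulin heavy chain gene, as well as DN3 thymocytes, which rearrange the T cell receptor beta gene, are known for high levels of their mRNAs.

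The study asked which domains of Pax5, the transcription factor of B cell identity, control development and gene expression in mouse pro-B cells (strain C57BL/6). Pax5(+/+) pro-B cells (5 samples) were compared with cells carrying deletions, marked D in the genotype names, of the octapeptide, Pax5(DOP/DOP), of the partial homeodomain, Pax5(DHD/DHD), or of both, Pax5(DOP,HD/DOP,HD). The C-terminal regulatory domains CRD1 and CRD2 were deleted in homozygous form, Pax5(DCRD1/DCRD1), Pax5(DCRD2/DCRD2) and Pax5(DCRD1,2/DCRD1,2), or hemizygously over a null allele, Pax5(DCRD1/-), Pax5(DCRD2/-) and Pax5(DCRD1,2/-). Vav-Cre Pax5(fl/fl) progenitors, in which Cre expressed from the Vav gene deletes floxed Pax5 from haematopoietic stem cells onward, served as Pax5-deficient cells, and each mutant group had 2 samples. A separate experiment, referred to here as the Prd experiment, held Vav-Cre Pax5(fl/+) pro-B cells with 1 remaining Pax5 allele, Vav-Cre Pax5(Prd/fl) progenitors that express only the DNA-binding paired domain from the Pax5 locus, and its own Vav-Cre Pax5(fl/fl) progenitors (2 samples each). All of these cells were sorted directly from bone marrow.

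The lymphoid progenitors were wild-type LMPP cells from bone marrow (lymphoid-primed multipotent progenitors, 2 samples) and the thymocyte stages DN1, DN2a and DN2b (3 samples each), DN3a and DN3b (2 each), together with DN3a cells labelled Rag2(-/-) (2 samples). The stages follow one another from LMPP to DN3b, and the step from DN3a to DN3b is the point at which cells with a functional T cell receptor beta chain are selected. Mice of 3 to 5 weeks were used for sorting Pax5(DCRD1/-) and Pax5(DCRD1,2/-) cells, and an age for the single samples or the other sorts is not given in the sources used here. The labels do not tie samples to animals, so that all p-values below measure the spread between these samples, which may in part be technical.

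The Pax5(+/+), Pax5(DCRD1/-) and Pax5(DCRD2/-) pro-B cells were sorted with a gate for pro-B cells, whereas Pax5(DCRD1,2/-) and Vav-Cre Pax5(fl/fl) cells were gated on B220, Ly6D and high Kit among lineage-negative cells, and the labels of the Prd experiment mark an alternative gating, without naming the gate, for the Prd/fl and fl/fl progenitors. Gate and genotype therefore cannot be told apart in the comparisons of these groups. A gate for the Pax5(DCRD1,2/DCRD1,2) cells, which are labelled pro-B cells, is not given in the sources used here. Depth was 10018678 to 43784791 gene-assigned reads per Pax5 sample, of which 545 to 6110 fell on Rag2, 10245 to 63634 on Rag1 and 30149 to 157695 on Dntt. Counting error was small against the spread within wild type, but not in every group. Rag2 in Vav-Cre Pax5(Prd/fl), at 27.6 and 26.6 TPM on 1176 and 1597 reads, differed about as little as counting error allows. Depth is unknown for the lymphoid samples. Pax5 mRNA itself was higher in Vav-Cre Pax5(fl/fl) (1609 to 1697 TPM) than in Pax5(+/+) (342 to 524 TPM) and checks nothing, since only an exon is deleted. The 3 early progenitor markers Kit, Flt3 and Cd34 summed to 70.3 to 87.4 TPM in Pax5(+/+), 268 to 321 TPM in Pax5(DCRD1,2/-) and 482 to 571 TPM in Vav-Cre Pax5(fl/fl). The 7 granulocyte markers summed to 402 to 4896 TPM in Pax5(+/+), so that their level varied within wild type. The 3 small pre-B and immature B cell markers varied there as well, with sums of 52.6 to 103.8 TPM. In sorted bulk samples fewer cells of a type and less RNA per cell cannot be told apart.

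Rag1 and Rag2 lie beside each other on mouse chromosome 2 and are transcribed towards each other. In the RefSeq annotation of GRCm38.p6, Rag1 spans chr2:101638252-101649532 on the minus strand with 2 exons, of which 1 holds the whole coding sequence, and Rag2 spans chr2:101624712-101632528 on the plus strand with 4 exons, of which 1 is coding. The genes are separated by 5723 bases. The gene Iftap overlaps 4320 bases of Rag2 on the opposite strand and shares 0 exon bases with it. Dntt spans chr19:41029275-41059525 on the plus strand, with 12 coding exons. The exon lengths used by the authors were 6669 bases for Rag1, 3429 for Rag2 and 2130 for Dntt, so that TPM (transcript abundance per length, scaled to a fixed total in each sample) allows the levels of the genes to be compared.

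The 250 bases upstream of each annotated start are shown because the 3 genes shared several changes below but differed in others. They come from RefSeq, build GRCm38.p6, read 5′ to 3′ on the strand of the gene, and correspond to chr2:101649533-101649782 on the minus strand for Rag1, chr2:101624462-101624711 on the plus strand for Rag2 and chr19:41029025-41029274 on the plus strand for Dntt. Capitals mark matches to one of 7 short motifs searched on both strands. The letters were TGGGAA for Ikaros, TGTGGT for Runx factors, AGATAA for the factors of the Gata family, GTAAACA for Foxo factors, CAGGTG for E proteins, CCAAT for the box of that name that NF-Y binds, and TATAAA for the core promoter element bound by the general factor TBP.
Rag1: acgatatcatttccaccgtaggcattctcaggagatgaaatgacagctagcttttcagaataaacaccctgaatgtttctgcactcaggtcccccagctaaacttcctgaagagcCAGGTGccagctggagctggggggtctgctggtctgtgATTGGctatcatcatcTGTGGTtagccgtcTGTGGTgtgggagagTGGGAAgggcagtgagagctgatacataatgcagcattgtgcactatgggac
Rag2: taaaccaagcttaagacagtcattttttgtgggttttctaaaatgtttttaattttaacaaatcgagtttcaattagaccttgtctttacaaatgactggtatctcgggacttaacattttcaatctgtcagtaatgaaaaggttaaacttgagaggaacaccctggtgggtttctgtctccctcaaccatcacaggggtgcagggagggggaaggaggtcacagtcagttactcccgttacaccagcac
Dntt: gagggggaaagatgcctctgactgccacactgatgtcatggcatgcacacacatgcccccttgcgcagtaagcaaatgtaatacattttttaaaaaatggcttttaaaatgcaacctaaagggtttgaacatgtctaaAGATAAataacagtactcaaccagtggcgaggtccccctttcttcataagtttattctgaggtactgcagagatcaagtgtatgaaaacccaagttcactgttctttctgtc

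The Rag1 sequence held 2 matches to the Runx letters, at bases 81 to 76 and 67 to 62 upstream of the start, 1 match to the Ikaros letters at bases 52 to 47, 1 E protein match at bases 135 to 130 and 1 CCAAT on the minus strand, which reads ATTGG on the strand shown, at bases 97 to 93. The Dntt sequence held 1 match to the Gata letters at bases 112 to 107, and no searched letters were found in the 250 bases of Rag2. Of 32851 promoter windows of this kind, 21.6% held TGGGAA, 14% TGTGGT, 9.99% AGATAA, 3.17% GTAAACA, 17.2% CAGGTG, 33.8% CCAAT and 12.4% TATAAA. The windows share little of what was searched, and a match describes letters only. GC content was 50.8% in the Rag1 window, 41.2% in Rag2 and 41.6% in Dntt.

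In wild-type pro-B cells Dntt was by far the most abundant of the 3 mRNAs, Rag1 was intermediate and Rag2 lowest. Dntt had 2706, 2743, 3158, 3373 and 2487 TPM in the Pax5(+/+) samples 1 to 5, a mean of 2893 ± 362 TPM (SD, n = 5) and rank 22 of 19046 genes with a mean above 0. Rag1, the subunit that carries the catalytic centre, had 822, 518, 451, 495 and 384 TPM, a mean of 534 ± 169 TPM and rank 259. Rag2, the subunit that recognises trimethylated histone H3 lysine 4, had 154, 156, 58.8, 85.5 and 61.6 TPM, a mean of 103 ± 48.2 TPM and rank 2172.

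The wild-type Rag2 values fell into separate levels, with samples 1 and 2 high and samples 3, 4 and 5 low, and Rag1 stood out in sample 1 alone. The highest Rag2 value was 2.65-fold above the lowest, against 2.14-fold for Rag1 and 1.36-fold for Dntt. Samples 1, 2 and 5 were sequenced with reads of 50 nt and samples 3 and 4 with reads of 100 nt, all trimmed to 50 nt by the authors. Between these read lengths Rag2 differed 1.61-fold, Rag1 1.16-fold and Dntt 0.81-fold (two-sided exact permutation tests, p = 0.3, 0.7 and 0.1, the last being the smallest p that 3 against 2 samples allow). Genes of the joining reaction were also high in samples 1 and 2, Polm with 41.5 and 36.8 TPM against 8.92 to 21.6 TPM in the others, and Lig4 with 75.7 and 62.2 TPM. What makes these samples differ was not tested, and the calls of the 3 genes that were lost or gained without both of them are given below.

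Over the 14 groups of the Pax5 experiments the order of the 3 genes differed. Mean Rag1 ran from 629 TPM in Pax5(DCRD2/-) to 228 TPM in Vav-Cre Pax5(fl/fl) of the Prd experiment, mean Rag2 from 103 TPM in Pax5(+/+) to 18.8 TPM in the same fl/fl group, and mean Dntt from 4535 TPM in Pax5(DHD/DHD) to 2222 TPM in Pax5(DCRD1,2/DCRD1,2). Most neighbours in these orders did not differ beyond their spread, since the sample ranges overlapped in 10 of 13 neighbouring pairs for Rag1, 8 of 13 for Rag2 and 7 of 13 for Dntt. The 4 lowest Rag1 groups (means of 228 to 247 TPM) did not overlap with any other group, and were Pax5(DCRD1,2/-), Pax5(DCRD1,2/DCRD1,2) and both progenitor groups of the Prd experiment. The plot of levels by genotype shows that Dntt was not alike in these 4 groups. Its means were 3492 TPM in Prd/fl, 3843 TPM in fl/fl, 2860 TPM in Pax5(DCRD1,2/-) and 2222 TPM in Pax5(DCRD1,2/DCRD1,2), against 2893 TPM in Pax5(+/+). The groups without both CRDs held the lowest Dntt means of the 14 groups.

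**Figure D1:**
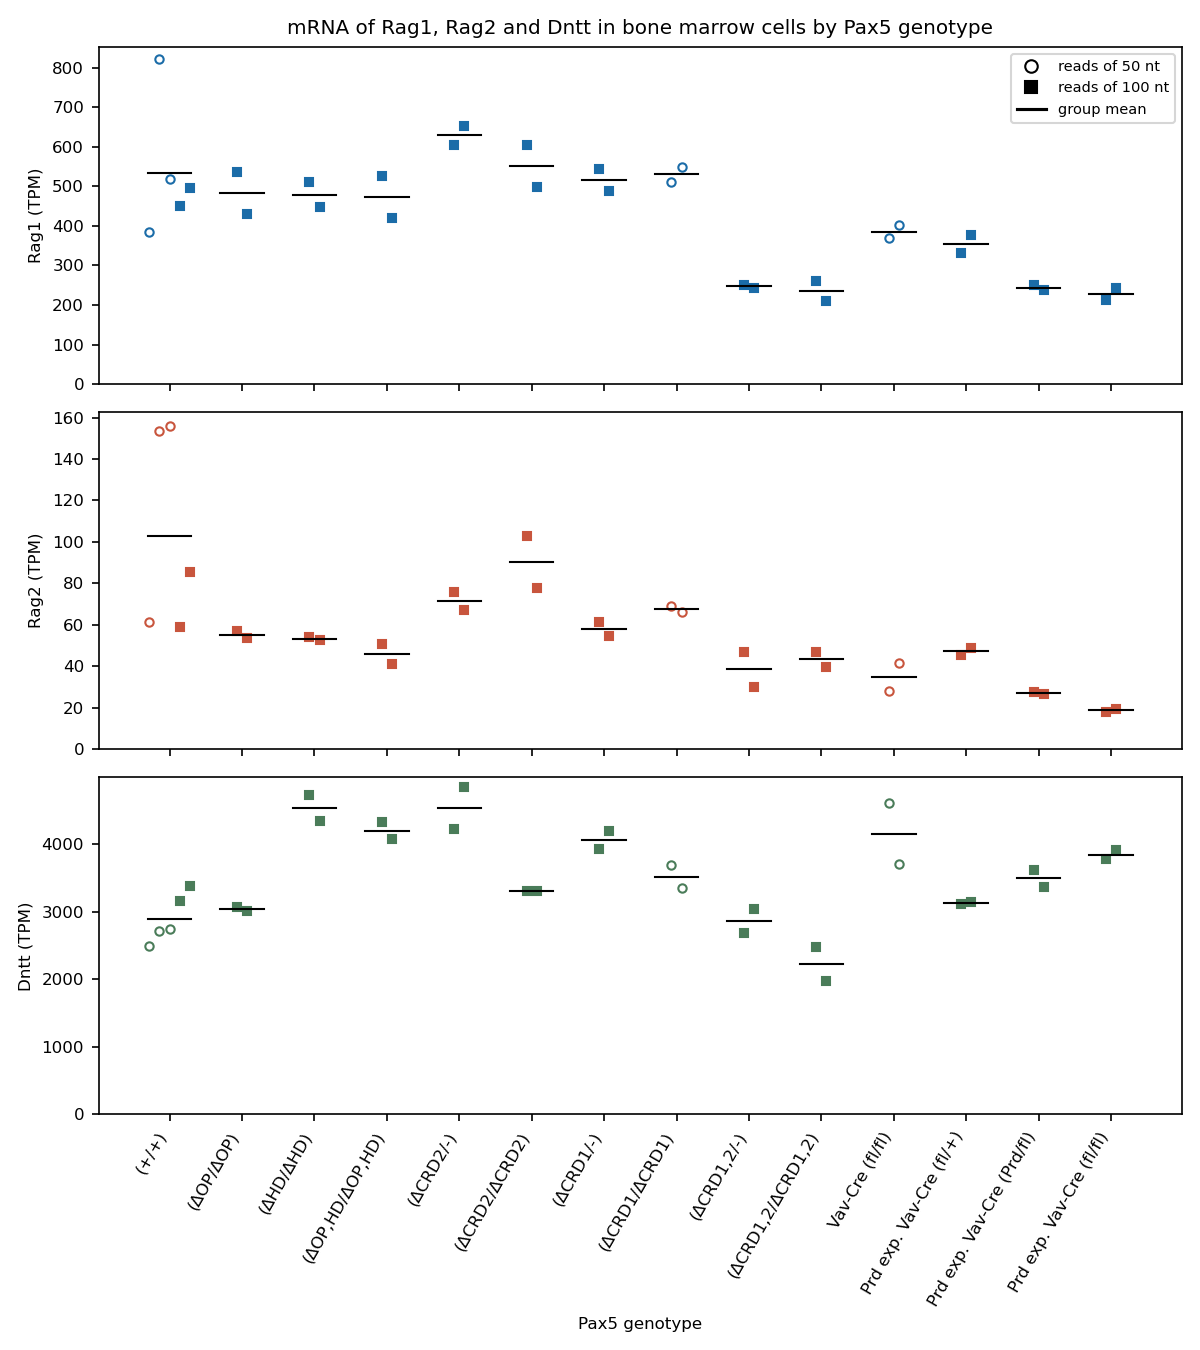
mRNA levels (TPM, y axes from 0) of Rag1, Rag2 and Dntt in each sample of the 14 Pax5 genotype groups (x axis), with open circles for reads of 50 nt, filled squares for reads of 100 nt and a line at the group mean; the 3 right-hand groups are the Prd experiment. Rag1 was lowest, at 210 to 259 TPM, without both CRDs and in the Prd/fl and fl/fl progenitors, where Dntt had 1974 TPM or more, and wild-type samples 1 and 2 stood above the others in Rag2.

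The first comparison asked whether the octapeptide and the homeodomain affect the 3 genes. The deletion of either or both domains left Rag1 close to wild type, Rag2 values were below those of wild type without passing the test, and Dntt was higher without the homeodomain than without the octapeptide. Rag1 had 537 and 429.9 TPM in Pax5(DOP/DOP), 510.1 and 448 TPM in Pax5(DHD/DHD), and 527 and 421 TPM in Pax5(DOP,HD/DOP,HD), against 451 and 495 TPM in Pax5(+/+) samples 3 and 4, which were the controls of this comparison. All 3 mutants overlapped with wild type, and the 95% intervals of the log2 fold changes (on the log2(TPM + 0.1) scale, as throughout) held 0, with estimates of 0.025 (interval -0.32 to 0.37), 0.018 (-0.32 to 0.36) and -0.0045 (-0.35 to 0.34).

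Dntt had 3060 and 3007 TPM in Pax5(DOP/DOP), 4728 and 4342 TPM in Pax5(DHD/DHD), and 4317 and 4075 TPM in Pax5(DOP,HD/DOP,HD), against 3158 and 3373 TPM in the controls. Both groups that lacked the homeodomain were thus above all wild-type samples, and both samples without the octapeptide alone were below the controls. Dntt was 1.49-fold lower in Pax5(DOP/DOP) than in Pax5(DHD/DHD) (log2 fold change -0.58 ± 0.09 SE, 95% interval -0.79 to -0.37, adjusted p = 0.0165), and it was the 1 of 3 members called in a comparison in which 3.96% of all genes were called. This call was lost when 1 sample was left out, with an adjusted p of 0.107 to 0.157 without either sample of these 2 groups and of 0.0541 and 0.0506 without the Pax5(DOP,HD/DOP,HD) samples 1 and 2, while the log2 fold change stayed between -0.64 and -0.52. The 7 granulocyte markers moved with it, at 3452 to 3930 TPM in Pax5(DOP/DOP) and 238 to 1109 TPM in Pax5(DHD/DHD), and their part in the result was not tested. Against wild type, the 1.39-fold higher Dntt of Pax5(DHD/DHD) did not pass the threshold (0.47, interval 0.26 to 0.68, adjusted p = 0.0805), nor did the log2 difference of 0.36 in Pax5(DOP,HD/DOP,HD) (adjusted p = 0.135) or of -0.11 in Pax5(DOP/DOP) (adjusted p = 0.541).

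Rag2 had 56.8 and 53.5 TPM in Pax5(DOP/DOP), 54.2 and 52.6 TPM in Pax5(DHD/DHD), and 51.01 and 41.1 TPM in Pax5(DOP,HD/DOP,HD), against 58.8 and 85.5 TPM in the controls. All 6 mutant samples were below every wild-type sample, and the 2 controls were far apart. The log2 fold changes were -0.36, -0.41 and -0.63, with adjusted p-values of 0.319, 0.425 and 0.180, and the interval of the last ran from -1.05 to -0.21. Of all genes, 0.485% were called in Pax5(DOP/DOP), 0.639% in Pax5(DHD/DHD) and 1.22% in Pax5(DOP,HD/DOP,HD), so that few genes passed this test at all.

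The second comparison concerned the C-terminal domains over a null allele and the loss of Pax5. Rag1 was lower in Pax5(DCRD1,2/-) progenitors than in wild type, while Vav-Cre Pax5(fl/fl) progenitors had lower Rag2 and higher Dntt. The model held the 5 Pax5(+/+) samples and read length as a term, so that the hemizygous mutants (reads of 100 nt) were in effect set against wild-type samples 3 and 4, and Vav-Cre Pax5(fl/fl) (reads of 50 nt) against samples 1, 2 and 5.

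Rag1 had 250.3 and 244 TPM in Pax5(DCRD1,2/-), below the lowest wild-type sample at 384 TPM. The difference was 1.91-fold (log2 fold change -0.93 ± 0.26 SE, interval -1.51 to -0.36, adjusted p = 0.0274), and Rag1 was the 1 of 3 members called where 20.2% of all genes were called. Without Pax5(+/+) sample 3 or 4 its adjusted p was 0.085 and 0.118, and without the Pax5(DCRD1,2/-) samples 1 and 2 it was 0.111 and 0.101, at log2 fold changes that stayed near -0.93. Rag2, at 47 and 30.2 TPM, was also below all wild-type samples (-0.91, adjusted p = 0.150, and 0.0286 without wild-type sample 5), whereas Dntt, at 2689 and 3031 TPM, lay within the wild-type range (-0.19, adjusted p = 0.437).

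With either domain alone missing over a null allele, Rag1 was not low. It had 544 and 489 TPM in Pax5(DCRD1/-), and 605 and 653 TPM in Pax5(DCRD2/-), all within the wild-type range. Rag2 had 61.2 and 54.4 TPM in Pax5(DCRD1/-), and 75.6 and 66.9 TPM in Pax5(DCRD2/-), at the lower end of wild type or, in 1 sample, just below it. Dntt, with 3918 and 4187 TPM in Pax5(DCRD1/-), and 4215 and 4840 TPM in Pax5(DCRD2/-), was above all wild-type samples in both groups, but the differences did not pass the threshold. The log2 fold changes of Rag1, Rag2 and Dntt were 0.13, -0.30 and 0.31 in Pax5(DCRD1/-) (adjusted p = 0.848, 0.758 and 0.292, with 8.51% of all genes called), and 0.41, 0.0057 and 0.47 in Pax5(DCRD2/-) (adjusted p = 0.830, 1 and 0.351, with 0.513% called).

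The difference between Pax5(DCRD1,2/-) and Pax5(DCRD1/-), which isolates the additional loss of CRD2, was largest for Rag1 among the 3 genes. It was -1.06 on the log2 scale (interval -1.64 to -0.49) with an adjusted p of 0.0672, above the threshold, where 2.17% of all genes were called. The adjusted p was 0.0181 without wild-type sample 5, 0.00754 without sample 1 and 0.00636 without samples 1 and 2. Rag2 differed by -0.61 (adjusted p = 0.538) and Dntt by -0.50 (adjusted p = 0.148). The sort gates of these groups differed, as given above, and the part of the gate in these values cannot be told apart from that of the genotype.

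Vav-Cre Pax5(fl/fl) progenitors had 368 and 401 TPM of Rag1, 28.3 and 41.5 TPM of Rag2, and 4609 and 3697 TPM of Dntt. Rag2 was below and Dntt above every wild-type sample, and Rag1 overlapped with the lowest wild-type sample. Rag2 was 3.31-fold lower (-1.73 ± 0.37 SE, adjusted p = 0.00449) and Dntt was 1.56-fold higher (0.64 ± 0.14 SE, adjusted p = 0.00517), that is 2 of 3 members called where 31.7% of all genes were called. Rag1 changed by -0.51 (interval -1.03 to 0.02, adjusted p = 0.133, and 0.0111 without wild-type sample 5). Without Vav-Cre Pax5(fl/fl) sample 1 the Rag2 difference was -1.45 (adjusted p = 0.0634) and the Dntt difference 0.48 (adjusted p = 0.0699). With wild-type samples 1 and 2 left out, Rag2 differed by -0.84 (adjusted p = 0.126) and Rag1 by 0.0013, so that the size of the Rag2 value rests on these wild-type samples.

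Markers of other cell types moved with these values. The 8 T-lineage markers summed to 493 to 539 TPM in Vav-Cre Pax5(fl/fl) and 136 to 174 TPM in Pax5(+/+), and the 5 plasmacytoid dendritic cell markers to 654 to 1052 TPM and 135 to 217 TPM. The 6 pro-B cell markers Cd79a, Cd79b, Vpreb1, Igll1, Ebf1 and Blnk summed to 4637 to 5373 TPM in Vav-Cre Pax5(fl/fl) and 12610 to 16990 TPM in Pax5(+/+). None of these ranges overlapped, and in Pax5(DCRD1,2/-) the sums were 366 to 370 TPM, 228 to 269 TPM and 12450 to 12510 TPM in the same order. Their part in the levels of the 3 genes was not tested.

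The third comparison placed the same C-terminal deletions on both alleles. As with 1 allele, Rag1 was low where both CRDs were missing and not where CRD1 or CRD2 alone was missing, and Dntt was now also lower. In Pax5(DCRD1,2/DCRD1,2), Rag1 had 259 and 209.6 TPM, Rag2 47.01 and 39.6 TPM, and Dntt 2469 and 1974 TPM. All 6 values were below the lowest wild-type sample of their gene. Rag1 was 2.02-fold lower (-1.02 ± 0.25 SE, adjusted p = 0.00956) and Dntt was 1.48-fold lower (-0.56 ± 0.14 SE, adjusted p = 0.0115), 2 of 3 members where 24.6% of all genes were called. Rag2 differed by -0.71 (adjusted p = 0.181, 0.0301 without wild-type sample 5, and 0.0494 without samples 1 and 2). The gate of these cells is not known, so that its part in the lower Rag1 and Dntt was not tested. Without wild-type sample 4 the adjusted p was 0.0528 for Rag1 and 0.0576 for Dntt, and without Pax5(DCRD1,2/DCRD1,2) sample 2 it was 0.0929 and 0.136.

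Pax5(DCRD1/DCRD1) pro-B cells had 512 and 549 TPM of Rag1, 69.02 and 66.3 TPM of Rag2, and 3693 and 3343 TPM of Dntt. Pax5(DCRD2/DCRD2) pro-B cells had 605 and 499 TPM of Rag1, 103.1 and 77.9 TPM of Rag2, and 3307 and 3311 TPM of Dntt. Rag1 and Rag2 lay within the wild-type range in both groups, and only Dntt of 1 Pax5(DCRD1/DCRD1) sample lay above it. The log2 fold changes of Rag1, Rag2 and Dntt were -0.045, -0.75 and 0.41 for CRD1 (adjusted p = 0.946, 0.223 and 0.0766, with 8.16% of all genes called), and 0.22, 0.34 and 0.020 for CRD2 (adjusted p = 0.918, 0.911 and 1, with 0.0956% called). The Rag2 value for CRD1 had an adjusted p of 0.00509 without wild-type sample 5 and turned to 0.14 on the log2 scale without samples 1 and 2, since the 50 nt samples 1, 2 and 5 are in effect its controls.

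Compared with Pax5(DCRD1/DCRD1), Dntt was 1.97-fold lower without both domains in the model with read length as a term (-0.97 ± 0.19 SE, adjusted p = 0.0235). It was the 1 of 3 members called where 1.71% of all genes were called. The mean levels, without that term, were 2222 TPM without both domains and 3518 TPM in Pax5(DCRD1/DCRD1). Over all alternatives the log2 fold change ran from -1.14 to -0.67. The call was lost without Pax5(DCRD1/DCRD1) sample 1 or 2 (adjusted p = 0.124 and 0.0803), without wild-type sample 3 or 4 (0.064 and 0.0638) and without Pax5(DCRD1,2/DCRD1,2) sample 2 (0.131), at log2 fold changes of -1.05 to -0.81, and without wild-type samples 1 and 2 together it was -1.06 (adjusted p = 0.0503). Rag1 differed by -0.97 (adjusted p = 0.199, and 0.0155 without wild-type sample 1), by -1.48 without samples 1 and 2 (adjusted p = 0.00981), and Rag2 by 0.035 (adjusted p = 0.983). The Pax5(DCRD1/DCRD1) samples had reads of 50 nt and the Pax5(DCRD1,2/DCRD1,2) samples reads of 100 nt, so that this difference leans on the wild-type samples of both lengths. The summed early progenitor markers were 242 to 246 TPM in the double mutant and 121 to 139.6 TPM in Pax5(DCRD1/DCRD1), and their part was not tested.

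Removing the domain from 1 allele over a null allele or from both alleles made no difference that passed the test. For the loss of both CRDs, the homozygous minus hemizygous log2 differences were -0.083 for Rag1 (interval -0.62 to 0.46), 0.20 for Rag2 (-0.60 to 0.99) and -0.37 for Dntt (-0.68 to -0.062, adjusted p = 0.775). For CRD2 they were -0.19, 0.33 and -0.45 (adjusted p = 0.351 for Dntt), and for CRD1 -0.17, -0.45 and 0.10. These comparisons called few genes at all, with 0.228%, 0.272% and 0% of 13598 genes by limma, the last with 819 genes at an unadjusted p under 0.05 and with 18 genes called by edgeR and 102 by DESeq2. The test of whether gene dose altered the effect of the additional CRD2 loss gave log2 differences of 0.089, 0.65 and -0.47 for Rag1, Rag2 and Dntt (adjusted p = 0.971, 0.802 and 0.760, with 0.0294% of all genes called). Both this interaction and the CRD1 dose difference set reads of 50 nt against reads of 100 nt. They thus lean on the wild-type samples of both lengths. The SEs of the CRD1 dose difference were 0.34, 0.50 and 0.19 for Rag1, Rag2 and Dntt, against 0.25, 0.37 and 0.14 for the other doses.

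The fourth comparison, in the Prd experiment, asked what the paired domain alone restores. Both progenitor groups had lower Rag1 and Rag2 than the fl/+ pro-B cells, Dntt was slightly higher in fl/fl, and the paired domain made no difference that passed the test. Rag1 had 331 and 376 TPM in Vav-Cre Pax5(fl/+), 250.5 and 237 TPM in Vav-Cre Pax5(Prd/fl), and 213 and 243 TPM in Vav-Cre Pax5(fl/fl). Rag2 had 45.4 and 48.95 TPM, 27.6 and 26.6 TPM, and 18.1 and 19.4 TPM in the same groups, which did not overlap. Dntt had 3105 and 3142 TPM, 3616 and 3369 TPM, and 3780 and 3906 TPM, so that its order over the 3 groups was the reverse of the Rag2 order.

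In Vav-Cre Pax5(fl/fl) relative to fl/+, all 3 members were called, where 39.9% of all genes were called. Rag1 was 1.55-fold lower (adjusted p = 0.0035), Rag2 was 2.51-fold lower (adjusted p = 0.000167) and Dntt was 1.23-fold higher (0.30 on the log2 scale, adjusted p = 0.0339). The Dntt call was lost without any 1 of the 4 samples compared, at adjusted p-values of 0.126 to 0.251 and log2 fold changes of 0.28 to 0.32. In Vav-Cre Pax5(Prd/fl), Rag1 was 1.45-fold lower (-0.54 ± 0.10 SE, adjusted p = 0.00675, and 0.0747 without fl/+ sample 2) and Rag2 was 1.74-fold lower (adjusted p = 0.00115), 2 of 3 members where 40.7% of all genes were called, and Dntt differed by 0.16 (adjusted p = 0.184). Between the progenitor groups, Rag2 was 0.53 higher on the log2 scale in Prd/fl (interval 0.30 to 0.76, adjusted p = 0.0535, and 0.0367 without Prd/fl sample 2), Rag1 was 0.097 higher (interval -0.14 to 0.34, adjusted p = 0.622) and Dntt was 0.14 lower (log2 difference -0.14, adjusted p = 0.420), where 1.97% of all genes were called. The summed early progenitor markers moved with these values, at 52.2 to 65.3 TPM in fl/+, 441 to 443 TPM in Prd/fl and 387 to 406 TPM in fl/fl, and their part in the result was not tested.

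**Figure D2:**
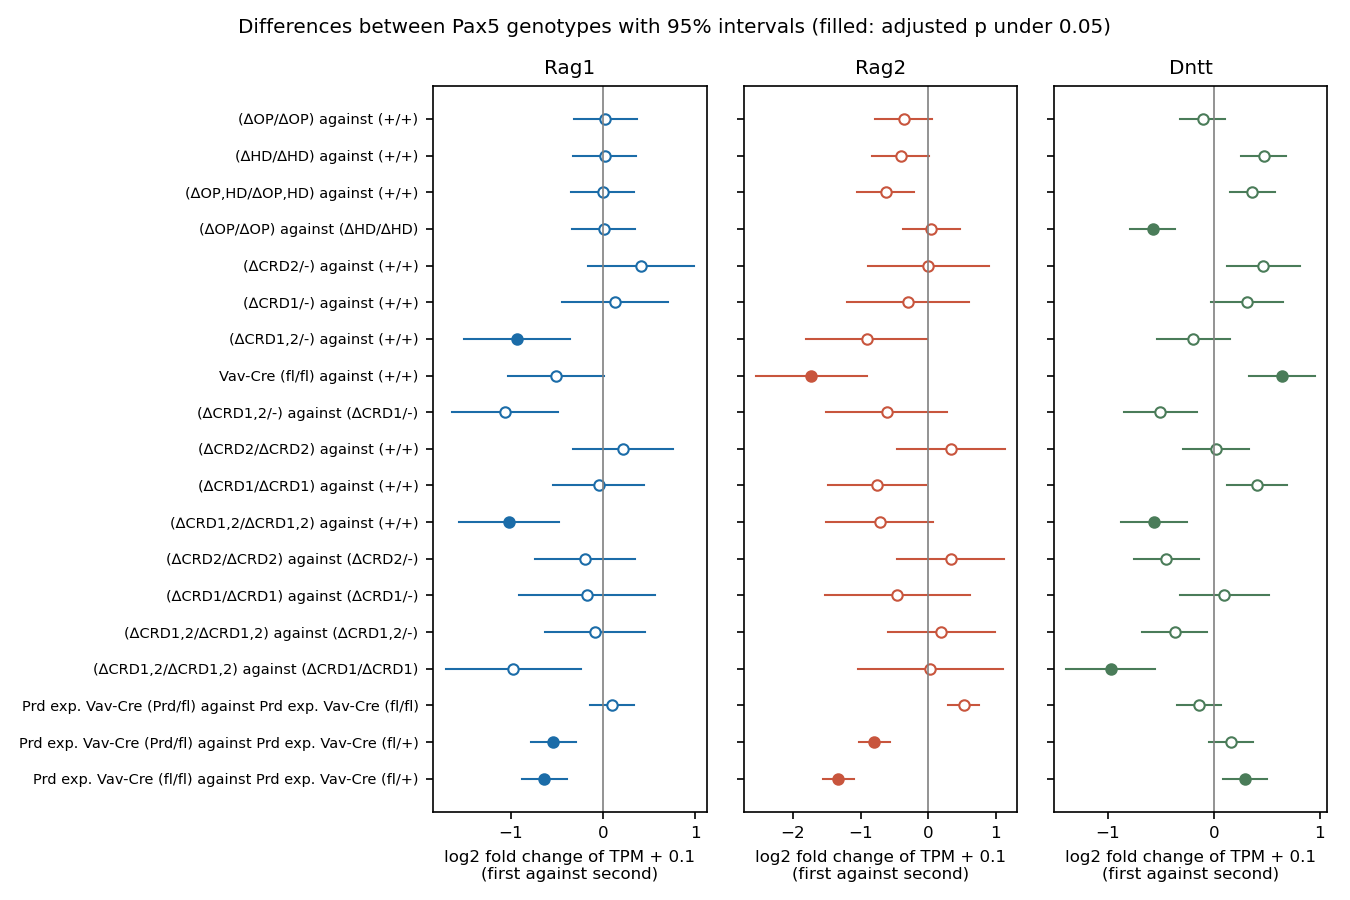
Log2 fold changes of Rag1, Rag2 and Dntt (x axis, on the log2(TPM + 0.1) scale) with 95% intervals for the comparisons between Pax5 genotypes (y axis); filled points had an adjusted p below 0.05 in limma. Against their Pax5(+/+) or fl/+ controls, the Rag1 and Rag2 estimates were negative in cells without both CRDs, without Pax5 or with the paired domain alone, while Dntt was positive in both comparisons of Vav-Cre Pax5(fl/fl) with its controls.

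Because the recombinase needs both subunits, the ratio of the Rag1 and Rag2 levels (both in TPM) was taken in each sample. It ran from 3.33 to 7.67 in the 5 wild-type samples, and was higher than in any of them in both samples of 8 of the 13 other groups. The highest ratios were 9.67 and 13.01 in Vav-Cre Pax5(fl/fl) and 11.8 and 12.5 in the fl/fl progenitors of the Prd experiment, in which Rag2 was lowest. Where both CRDs were missing, the ratio stayed at 5.33 to 8.07 in Pax5(DCRD1,2/-) and at 5.29 to 5.52 in Pax5(DCRD1,2/DCRD1,2), since both genes were low together. The 2 low wild-type ratios of 5.35 and 3.33 were those of samples 1 and 2 with high Rag2. The ratio of Dntt to Rag1 was 3.29 to 7.01 in wild type, 14.2 to 14.4 in Vav-Cre Pax5(Prd/fl), and 16.1 to 17.7 in the fl/fl progenitors beside them.

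**Figure D3:**
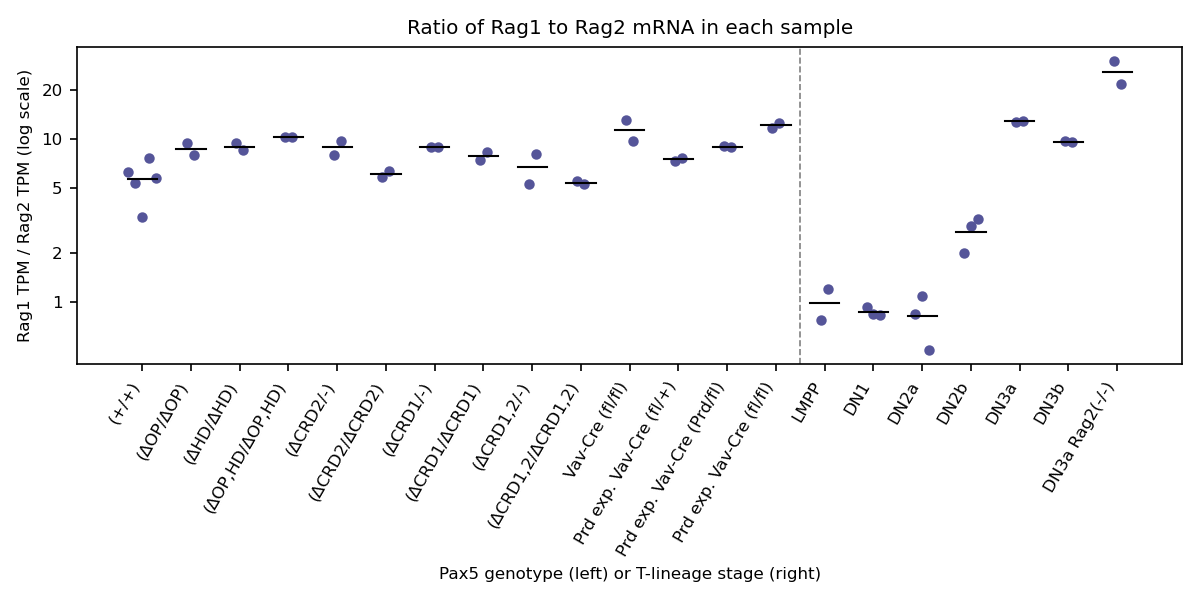
Ratio of Rag1 to Rag2 TPM (y axis, log scale) in each sample, by Pax5 genotype on the left and by T-lineage stage on the right. The ratio lay between 3.33 and 13.01 in all bone marrow B-lineage samples, near 1 in LMPP, DN1 and DN2a cells, and above 12 in DN3a cells.

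The other genes of V(D)J recombination are described from 4 lists, with counts of the members called and no test of a list as such. The joining list held 15 genes of end joining and its signalling, such as Ku70 (Xrcc6) and Ku80 (Xrcc5), which bind the broken ends, Artemis (Dclre1c), which opens the hairpins, DNA ligase IV (Lig4) and its partner Xrcc4, and histone H2AX (H2ax). A second list of 5 held the polymerases related to Dntt, namely Polm, Poll and Polb, and the Dntt-interacting proteins Dnttip1 and Dnttip2. In all 3 comparisons of a central domain mutant with wild type, and for CRD2 loss of either dose, the gene of these lists that was called was Polm in Pax5(DOP,HD/DOP,HD) (2.45 against 11.1 TPM, -2.16 on the log2 scale, adjusted p = 0.0241).

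Polm encodes polymerase mu, the closest relative of Dntt, and its change was opposite to that of Dntt where Pax5 was lost. Polm mRNA was 24.4 TPM on average in wild type, 1.97 TPM in Pax5(DCRD1/DCRD1) (log2 fold change -4.04, adjusted p = 0.000162), 1.31 TPM in Vav-Cre Pax5(fl/fl) (-4.55, adjusted p = 1.063e-05), 0.177 TPM in Pax5(DCRD1/-) (-5.37, adjusted p = 5.18e-05), 0.0998 TPM in Pax5(DCRD1,2/-) (-5.83, adjusted p = 1.056e-05) and 0.123 TPM in Pax5(DCRD1,2/DCRD1,2) (-5.77, adjusted p = 5.538e-06). At levels this close to 0 the log2 fold changes depend on the added 0.1 TPM. In these comparisons of list genes with Pax5(+/+), here and below, the wild-type averages are over all 5 samples. The log2 fold changes come from the models with read length as a term, and need not equal the ratio of the averages. In the Prd experiment Polm had 5.52 TPM in fl/+, 0.174 TPM in Prd/fl and 0.186 TPM in fl/fl, below its controls in every sample. Without wild-type samples 1 and 2 the Polm difference was -3.48 in Pax5(DCRD1/DCRD1) (adjusted p = 0.0185) and -3.99 in Vav-Cre Pax5(fl/fl) (adjusted p = 0.00251), so that both calls stayed. Loss of CRD1 alone thus lowered Polm without a change in Rag1 or Dntt that passed the test.

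Lig4, the ligase that seals the joints, was lower where both CRDs were missing, as Rag1 was, and in both progenitor groups of the Prd experiment. In Pax5(DCRD1/DCRD1) and in Vav-Cre Pax5(fl/fl) outside the Prd experiment its call rested on 2 wild-type samples. It had 50.4 TPM on average in wild type, 16.9 TPM in Pax5(DCRD1,2/-) (-1.13, adjusted p = 0.0331), 15.8 TPM in Pax5(DCRD1,2/DCRD1,2) (-1.22, adjusted p = 0.00568), 29.3 TPM in Pax5(DCRD1/DCRD1) (-0.96, adjusted p = 0.0322) and 25.1 TPM in Vav-Cre Pax5(fl/fl) (-1.22, adjusted p = 0.00946). Like Rag2, it was high in wild-type samples 1 and 2, and without them the last 2 calls were lost, at -0.41 (adjusted p = 0.537) and -0.67 (adjusted p = 0.227), while both double mutants stayed called. In the Prd experiment, which holds no Pax5(+/+) samples, Lig4 had 36.55 TPM in fl/+. It was lower in Prd/fl (18.06 TPM, -1.02, adjusted p = 0.00308) and in fl/fl (16.88 TPM, -1.12, adjusted p = 0.00213). Poll, encoding polymerase lambda, was higher in Vav-Cre Pax5(fl/fl) (81.2 against 39.8 TPM, 1.07, adjusted p = 0.00097), and had 106 TPM in Prd/fl and 83.95 TPM in fl/fl against 53.8 TPM in fl/+, so that Poll and Dntt were higher in fl/fl progenitors in which Polm was low. Ku70 (Xrcc6) was lower in Pax5(DOP/DOP) than in Pax5(DHD/DHD) (575 against 813 TPM, -0.50, adjusted p = 0.0202) and lower in Pax5(DCRD1,2/DCRD1,2) than in Pax5(DCRD1/DCRD1) (389 against 563 TPM, -0.83, adjusted p = 0.0486), the comparisons in which Dntt was lower too. Ku80 (Xrcc5) was higher in Pax5(DCRD1,2/-) (41 against 19 TPM, 1.05, adjusted p = 0.00943).

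Counted over the whole joining list, 2 of 15 genes were higher and 5 lower in Pax5(DCRD1,2/-), 3 higher and 4 lower in Pax5(DCRD1,2/DCRD1,2), and 4 higher and 4 lower in Vav-Cre Pax5(fl/fl), out of 15 in each. Of all genes, 7.96% were higher and 12.3% lower, 10.2% higher and 14.4% lower, and 17.1% higher and 14.6% lower in these comparisons. The list medians were -0.44, -0.32 and -0.26 on the log2 scale, against -0.040 and 0.0061 for all genes tested in the first and the last and a value of 0 to the precision used in the second. H2ax fell in all of these, to 275 TPM from 1492 TPM in Vav-Cre Pax5(fl/fl) (-2.55, adjusted p = 1.022e-06), and as a histone gene it is known to follow cell division. In Pax5(DCRD1/-) 2 were higher and 1 was lower (3.85% and 4.66% of all genes), and in Pax5(DCRD1/DCRD1) 2 were lower (4.45%, with 3.71% of all genes higher). In the Prd experiment 6 were higher and 4 lower in Prd/fl (24.1% and 16.6% of all genes), and 3 higher and 6 lower in fl/fl (20.8% and 19.1%). Without wild-type samples 1 and 2 the list had 3 higher and 3 lower in Vav-Cre Pax5(fl/fl), with a median of 0.010, 1 lower in Pax5(DCRD1/DCRD1) and 1 lower in Pax5(DCRD1/-), and its counts in both double mutants stayed. Of all genes, 12.1% were then higher and 8.69% lower in Vav-Cre Pax5(fl/fl), 2.1% and 1.75% in Pax5(DCRD1/DCRD1), and 3.87% and 4.36% in Pax5(DCRD1/-). The shares were 7.84% and 11.7% in Pax5(DCRD1,2/-), and 11.5% and 15.2% in Pax5(DCRD1,2/DCRD1,2).

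**Figure D4:**
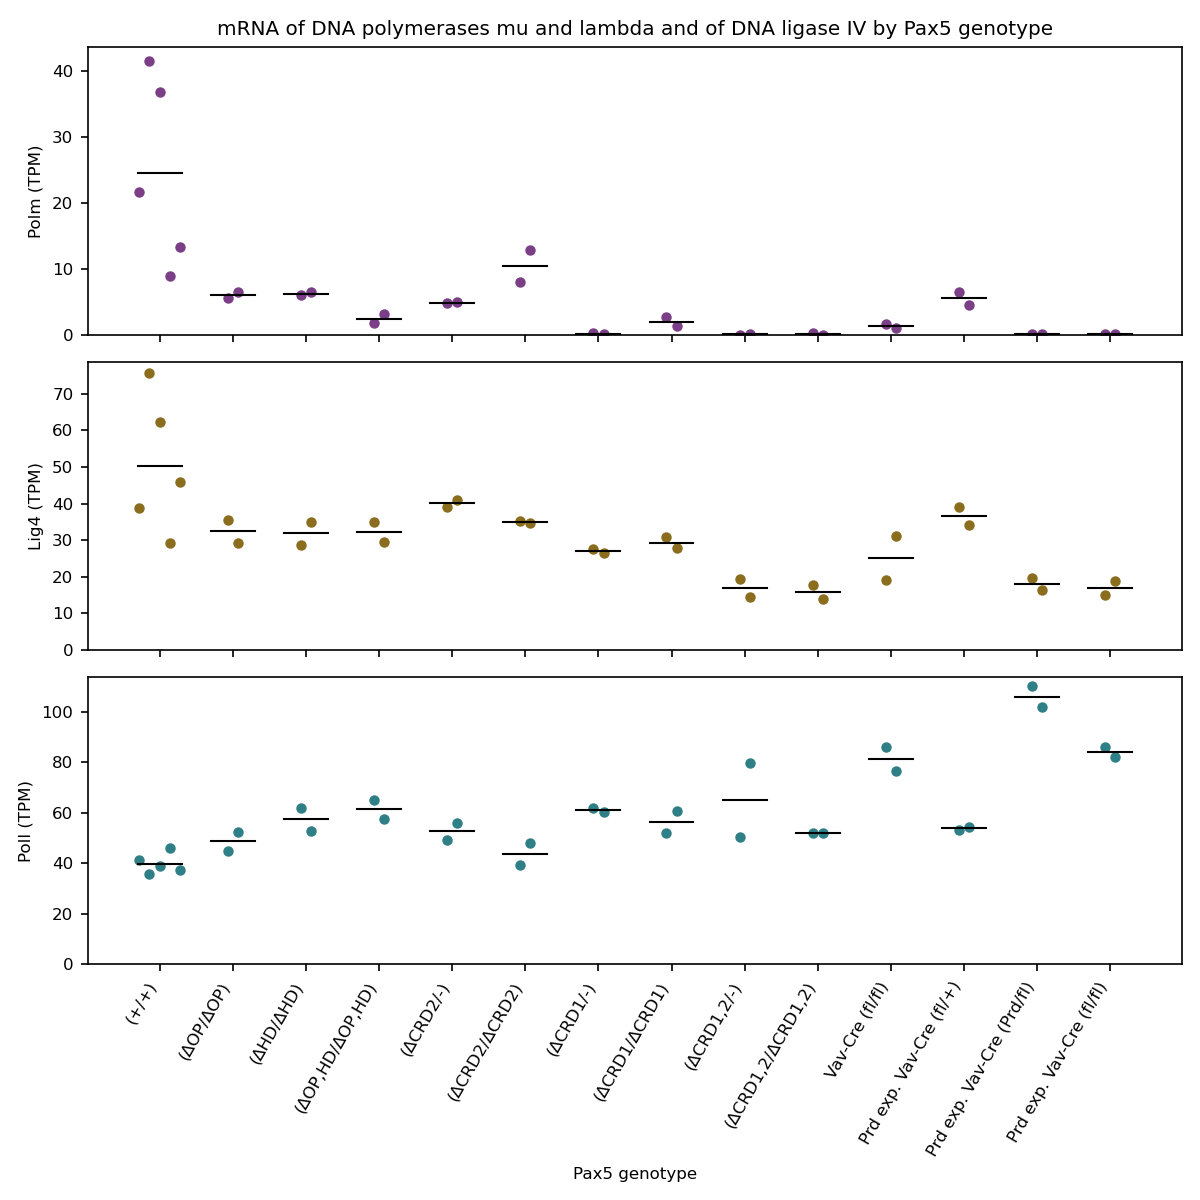
mRNA levels (TPM, y axes) of Polm, Lig4 and Poll in each sample by Pax5 genotype (x axis), with a line at the group mean. Polm was near 0 in 5 groups, those of Pax5(DCRD1/-), of both double CRD mutants and of the Prd/fl and fl/fl progenitors, whereas Poll was highest in the Prd/fl progenitors.

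A list of 20 known regulators of Rag1, Rag2 and Dntt included the transcription factors Foxo1, E2A (Tcf3), Ebf1, Ikaros (Ikzf1) and Runx1. It also held the inhibitors Id2 and Id3, the repressors Gfi1 and Gfi1b, and Pax5 itself, the mutated gene. In Pax5(DCRD1,2/-) 10 of 20 were lower, in Pax5(DCRD1,2/DCRD1,2) 10 were lower and 1 higher, and in Vav-Cre Pax5(fl/fl) 10 were lower and 4 higher. The single higher one in the homozygous double mutant was Pax5, which was also among the 4 beside Satb1, Gata3 and Id2, and its mRNA level does not report on the protein. Of all genes, 12.3%, 14.4% and 14.6% were lower in these comparisons, and 7.96%, 10.2% and 17.1% higher. The list medians in these cells were -0.44, -0.43 and -0.57, against -0.040, 0 to the precision used and 0.0061 for all genes tested. Without wild-type samples 1 and 2 the counts were 11 lower, 11 lower and 1 higher, and 9 lower and 4 higher. Of all genes, 11.7%, 15.2% and 8.69% were then lower, and 7.84%, 11.5% and 12.1% higher. Tcf3 had 220.2 TPM in Pax5(DCRD1,2/DCRD1,2) against 1286 TPM in wild type (-2.21, adjusted p = 1.229e-06), and its inhibitor Id3 fell from 575 TPM to 47.1 TPM in Pax5(DCRD1,2/-) (-3.68, adjusted p = 1.722e-06). Ikzf3, encoding Aiolos, fell from 42.5 to 1.07 TPM in Pax5(DCRD1,2/-) (-4.12) and Lef1 from 581 to 15 TPM in Vav-Cre Pax5(fl/fl) (-5.60). Whether these regulators had a part in the levels of the 3 genes was not tested.

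The genes next to the recombinase and Dntt loci were read as a local comparison. Of 8 neighbours tested, 5 were lower in each of the double CRD mutants and 3 in Vav-Cre Pax5(fl/fl), where 12.3%, 14.4% and 14.6% of all genes were lower. Without wild-type samples 1 and 2 the count was 4 in Pax5(DCRD1,2/-), 5 in Pax5(DCRD1,2/DCRD1,2) and 1 in Vav-Cre Pax5(fl/fl), where 11.7%, 15.2% and 8.69% of all genes were then lower. Blnk, a signalling adaptor gene that lies beside Dntt, fell from 1456 to 476 TPM in Pax5(DCRD1,2/-) (-1.59, adjusted p = 0.000246) and to 769 TPM in Vav-Cre Pax5(fl/fl) (-0.95, adjusted p = 0.00189), where Dntt was higher. Traf6, near the Rag genes, fell from 48.2 to 19.3 TPM in Pax5(DCRD1,2/-) (-1.08, adjusted p = 0.0107). Blnk is itself a known Pax5 target.

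In the T lineage the 3 genes were low or intermediate in LMPP cells and reached their highest wild-type level at DN3a, but they took different paths to it. These samples were aligned and counted apart from the Pax5 samples, so that their levels were not tested against those of pro-B cells. The check of the targeted gene comes first. The DN3a libraries labelled Rag2(-/-) held 35.5 and 42.2 TPM of Rag2 mRNA against 48.7 and 75.5 TPM in wild-type DN3a, so that Rag2 mRNA was not absent from them. The extent of the deletion in this allele is not given in the sources used here, and mRNA from parts of the gene that remain would still be counted, so that this level does not check the label.

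Rag1 had 2.21 and 2.92 TPM in LMPP, 5.06, 3.42 and 3.42 TPM in DN1, and 5.32, 6.59 and 3.91 TPM in DN2a, and then 16.4, 24.1 and 26.3 TPM in DN2b, 622 and 972 TPM in DN3a, and 86.9 and 110.5 TPM in DN3b. The first 3 stages were near one another, DN2b was above them, and DN3a was far above all other wild-type stages. From DN2a to DN2b Rag1 rose 4.17-fold (adjusted p = 4.369e-05) and from DN2b to DN3a 35.5-fold (adjusted p = 1.801e-08), and it then fell 7.93-fold into DN3b (adjusted p = 2.417e-06). The earlier steps, of 0.60 from LMPP to DN1 (adjusted p = 0.165) and 0.40 from DN1 to DN2a (adjusted p = 0.223) on the log2 scale, did not pass the threshold. In rank among the genes of a stage, Rag1 stood at 10905 in LMPP, 128 in DN3a and 2118 in DN3b.

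Rag2 had 2.84 and 2.43 TPM in LMPP, 5.45, 4.04 and 4.07 TPM in DN1, 6.27, 6.03 and 7.69 TPM in DN2a, 8.20, 8.24 and 8.195 TPM in DN2b, 48.7 and 75.5 TPM in DN3a, and 8.97 and 11.5 TPM in DN3b. No neighbouring stages overlapped, and the mean was higher at each stage up to DN3a than at the one before. Rag2 rose 7.30-fold from DN2b to DN3a (adjusted p = 2.477e-07), less than Rag1, and fell 5.92-fold into DN3b (adjusted p = 7.557e-07). It also rose 1.68-fold from LMPP to DN1 (adjusted p = 0.0201) and 1.47-fold from DN1 to DN2a (adjusted p = 0.0336), whereas the step to DN2b was 0.31 on the log2 scale (adjusted p = 0.289). The first of these calls was lost without LMPP sample 1 or 2 (0.0604 and 0.14) or without 1 of the DN1 samples (0.0823), and the second without either of 2 DN2a samples (0.0631 and 0.134) or either of 2 DN1 samples (0.1 and 0.116).

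Dntt was already abundant before T-lineage entry and went down and up again. It had 779 and 775 TPM in LMPP, 1442, 1346 and 1406 TPM in DN1, 819, 659.5 and 701 TPM in DN2a, 1987, 2277 and 2787 TPM in DN2b, 3472 and 3214 TPM in DN3a, and 1223 and 1240 TPM in DN3b. LMPP and DN2a overlapped, and every other stage stood apart from its neighbours in time. Dntt rose 1.80-fold into DN1 (adjusted p = 0.00029), fell 1.93-fold into DN2a (adjusted p = 3.889e-05), rose 3.22-fold into DN2b (adjusted p = 3.647e-07) and 1.44-fold into DN3a (adjusted p = 0.00503), and fell 2.71-fold into DN3b (adjusted p = 1.937e-06). The rise into DN3a had an adjusted p of 0.0519 without DN3a sample 1.

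In these steps the members called were 2 of 3 from LMPP to DN1, from DN1 to DN2a and from DN2a to DN2b, and 3 of 3 into DN3a and into DN3b. The shares of all genes called were 18.6%, 33.7%, 18.2%, 45.8% and 53.4%. The median log2 fold change of all genes was -0.18 from DN1 to DN2a, 0.27 from DN2b to DN3a and -0.41 from DN3a to DN3b. Relative to these medians, the log2 changes into DN3a were 4.88 for Rag1, 2.60 for Rag2 and 0.25 for Dntt, and those into DN3b -2.58, -2.16 and -1.03. With the samples rescaled by median ratios the rise of Dntt into DN3a was 0.24 on the log2 scale (adjusted p = 0.323), so that this rise was not distinct from a shift of all genes.

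**Figure D5:**
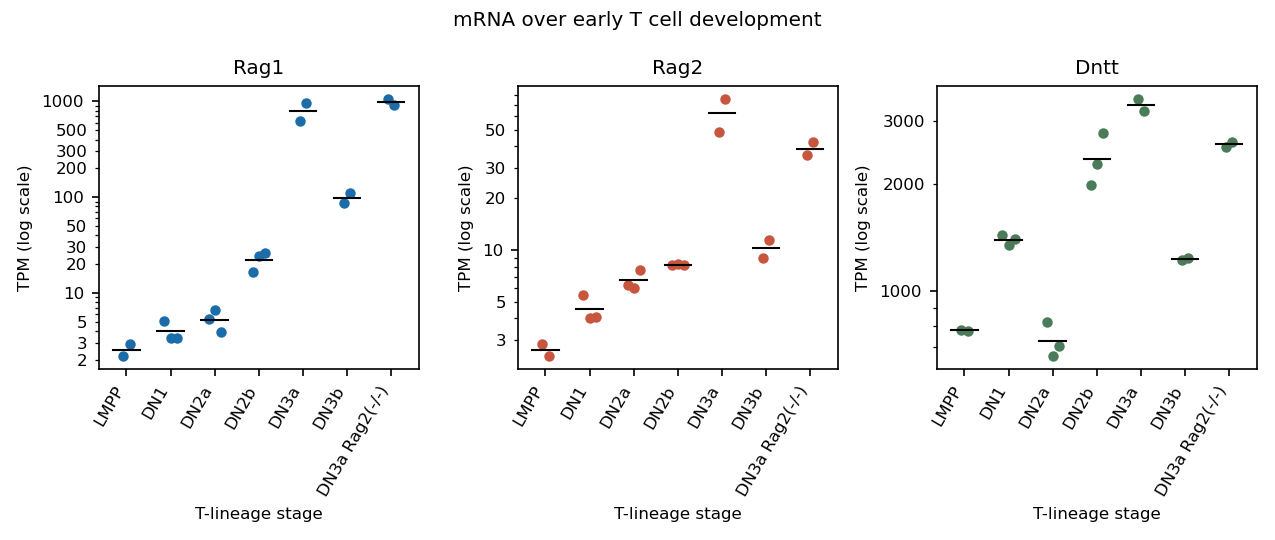
mRNA levels (TPM, log scale on the y axes) of Rag1, Rag2 and Dntt in each sample of LMPP cells, of the wild-type thymocyte stages DN1 to DN3b and of DN3a cells labelled Rag2(-/-) (x axis), with a line at the group mean. Rag1 rose 35.5-fold and Rag2 7.30-fold from DN2b to DN3a, whereas Dntt was at 775 TPM or more in LMPP, fell in DN2a and peaked in DN3a.

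The composition of transcripts changed with stage. The Rag1 to Rag2 ratio was 0.78 to 1.20 in LMPP, 0.84 to 0.93 in DN1 and 0.51 to 1.09 in DN2a, rose to 2.00 to 3.21 in DN2b, and was 12.8 to 12.9 in DN3a and 9.62 to 9.69 in DN3b. Rag1 thus accounted for most of the rise in recombinase mRNA at DN3a. Dntt exceeded Rag1 by 266-fold to 352-fold in LMPP and by 3.31-fold to 5.58-fold in DN3a. The summed T-lineage markers rose at each stage up to DN3a, whereas no Rag1 step before DN2b was called. The sums were 123.2 TPM in LMPP, 1483 to 1761 TPM in DN1 and 2569 to 3612 TPM in DN2a. They reached 6754 to 8668 TPM in DN2b and 18430 to 18540 TPM in DN3a. In DN3b, where Rag1 fell, the sums were 12400 to 12610 TPM. The 7 granulocyte markers fell, from 2140 to 2400 TPM in LMPP to 9.78 to 24.6 TPM in DN2b. The part of both marker sets in the values of LMPP, DN1 and DN2a was not tested.

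In the DN3a libraries labelled Rag2(-/-), which cannot assemble a T cell receptor if the label holds, Rag1 had 1063 and 912 TPM against 622 and 972 TPM, overlapping with wild-type DN3a (0.34, interval -0.31 to 0.99, adjusted p = 0.439). Dntt had 2547 and 2632 TPM, below both wild-type samples at 3472 and 3214 TPM (-0.37, adjusted p = 0.0697, and 0.0408 and 0.0331 without one or the other of 2 DN2b samples). Rag2 was 1.56-fold lower than in wild-type DN3a (-0.65, adjusted p = 0.0495), the 1 of 3 members called where 26.4% of all genes were called. That call stood at the threshold. It was lost under 19 alternatives, among them the omission of either Rag2(-/-) sample (adjusted p = 0.242 and 0.0862) or of DN3a sample 2 (log2 fold change -0.33, adjusted p = 0.396), and 10 omissions of samples of other stages, which left the log2 fold change at -0.65 (adjusted p = 0.0528 to 0.0612). The Rag1 to Rag2 ratio was 21.6 and 29.9 in these libraries. The 8 T-lineage markers summed to 18170 to 18460 TPM, beside 18430 to 18540 TPM in wild-type DN3a, the 4 DN3 markers (Il2ra, Ptcra, Cd28 and Tfrc) to 4384 to 4807 TPM beside 2510 to 2894 TPM, and Pax5 was listed at 0.

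The joining genes rose with the recombinase at DN3a only in part. Of 14 genes tested, 6 were higher in DN2b than in DN2a, 9 were higher and 3 lower in DN3a than in DN2b, and 3 were higher and 8 lower in DN3b than in DN3a. The shares of all genes higher and lower in these steps were 9.8% and 8.43%, 31.4% and 14.4%, and 14.2% and 39.2%. Dclre1c, the hairpin-opening nuclease, followed the course of Rag1, with 3.80 TPM in DN2b, 12.5 TPM in DN3a (1.75, adjusted p = 0.000123) and 3.03 TPM in DN3b (-2.02, adjusted p = 4.511e-05), and was lower in the Rag2(-/-) libraries (4.53 TPM, -1.45, adjusted p = 0.00246). Lig4 rose earlier, from 1.86 TPM in DN1 to 8.22 TPM in DN2a (2.08, adjusted p = 5.762e-07) and 27.3 TPM in DN2b (1.73, adjusted p = 3.471e-06). H2ax and Hmgb2 moved against Rag1 into DN3a and into DN3b. Hmgb2 had 232 TPM in DN2b, 62.5 TPM in DN3a (-1.90) and 393 TPM in DN3b (2.66). From DN2a to DN2b both rose as Rag1 did. Hmgb2 rose from 116.7 TPM (0.99, adjusted p = 0.000162) and H2ax from 454 to 854 TPM (0.91, adjusted p = 0.000995). Both genes are known to be high in dividing cells.

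The polymerases related to Dntt shared its course in some steps and not in others. Polm, low throughout, rose from 0.3 TPM in LMPP to 1.10 TPM in DN1 (1.53, adjusted p = 0.00878) and from 0.933 TPM in DN2b to 2.48 TPM in DN3a (1.33, adjusted p = 0.00946), steps in which Dntt rose too. Polb, encoding polymerase beta, rose from 49.6 to 68.3 TPM into DN3a (0.47, adjusted p = 0.0273), and 3 of the 5 genes of this list were higher there, where 31.4% of all genes were higher. Poll fell from 89.04 TPM in DN1 to 34.9 TPM in DN2a (-1.37, adjusted p = 0.000393) and 10.99 TPM in DN2b (-1.67, adjusted p = 9.536e-05), while Dntt rose in the latter step. Polm rose on to 8.06 TPM in DN3b (1.64, adjusted p = 0.00345), where Dntt fell, and was at 0.403 TPM in the Rag2(-/-) libraries (-2.47, adjusted p = 0.000818).

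Among the regulators, 18 of which were tested, 8 were higher in DN1 than in LMPP (6.73% of all genes were higher and 11.9% lower), 10 were lower in DN2a than in DN1 (22.9% lower and 10.9% higher), and 11 were higher and 1 lower in DN3a than in DN2b (31.4% higher and 14.4% lower). Lef1, a transcription factor of early T cells, rose from 12 to 230.6 TPM into DN3a (4.27, adjusted p = 1.607e-08), and Erg fell from 81.5 to 1.30 TPM into DN3b (-5.90, adjusted p = 4.85e-09). Of the 8 neighbours, 5 were higher and 1 lower in DN3a than in DN2b, beside the same shares of all genes. Iftap, the gene that overlaps Rag2 on the other strand, had 1.45 TPM in DN2b, 8.23 TPM in DN3a (2.41, adjusted p = 5.045e-06) and 3.47 TPM in DN3b (-1.26, adjusted p = 0.00131), and had been 21.4 TPM in LMPP, where Rag2 was lowest. Whether the library preparation kept strand is not given in the sources used here. The 2 genes share no exon bases in GRCm38.p6, but these samples were aligned to mm9. Whether any reads were counted for both genes was not tested.

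The genes whose levels were most like those of the 3 members are given as a description, as Pearson correlations of log2(TPM + 0.1) among genes with a group mean of at least 5 TPM. Over the 31 Pax5 samples the 5 most like Rag1 were Pde4b (0.94), Spty2d1 (0.93), Ppp6r3 (0.92), Ankfy1 (0.91) and Phf8 (0.91), and those most like Rag2 were Zfp597 (0.95), Stambpl1 (0.94), Arel1 (0.94), Efcab2 (0.93) and Asah2 (0.92). Rag1 and Rag2 had a correlation of 0.81, which placed Rag2 at rank 200 of 11026 genes for Rag1. Dntt was most like Xrcc6 (0.78), Amdhd1 (0.77), Nfkb1 (0.75), Rab7b (0.75) and Svil (0.74), and had correlations of 0.33 with Rag1 and -0.19 with Rag2. These points share genotype groups, sort gates and read lengths.

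Over the 17 samples of the T lineage the correlations were higher, and the points share the same few stages. Rag1 was most like Ralgps2 (0.99), Vwce (0.99), Ostm1 (0.99), Actn1 (0.99) and Kcnh3 (0.98), and Rag2 was most like C1galt1 (0.97), 2010300C02Rik (0.97), Snx6 (0.97), Tmem131 (0.97) and Ppp1r21 (0.97). Rag1 and Rag2 had a correlation of 0.95, with Rag1 at rank 18 of 11039 genes for Rag2. Dntt was most like Ttll9 (0.95), Tgfbr3 (0.93), Iqgap1 (0.93), Arhgap9 (0.92) and Ncald (0.91), and had correlations of 0.76 with Rag1 and 0.75 with Rag2.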

How the data were processed

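RNA was measured by poly(A) RNA sequencing in 48 samples. Per the methods and labels, the authors trimmed the reads of the Pax5 samples to 50 nt, aligned them to GRCm38/mm10 with STAR 2.4.2a, counted reads over RefSeq genes with Rsubread and deposited TPM per gene. Reads of the lymphoid samples were aligned to mm9 with TopHat 1.4.1 and deposited as 2 TPM rows per gene, whose mean was used here, with an entry of exactly 1 read as 0. The authors also deposited raw counts, of which 2 columns (28928773 and 36972531 reads) were used to check TPM values against counts. In 8 Pax5 tables without gene names the genes were taken by row order, which was tested on implied gene lengths (100% of rows matched within 1%, and 1.4% when shifted by 1 row). Whole reads were recovered from the TPM values with 100% of values whole (tolerance 0.02), because 16745 genes gave an implied length.

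Tests used limma 3.58.1 (R 4.3.3) with an intensity trend on log2(TPM + 0.1), after genes that never passed 1 TPM in a model had been removed, with Benjamini-Hochberg adjustment over all genes and a threshold of 0.05. The models held 8 (central domains), 13 (hemizygous and Pax5-deficient), 17 (homozygous), 6 (Prd experiment) and 17 (T lineage) samples, with read length as a term in the second and the third. Alternatives were other pseudocounts, no filter, no trend, median ratio scaling, a replicate block, omission of each sample, and edgeR 4.0.16 and DESeq2 1.42.0 on recovered reads. The code was tested on simulated data. The members and lists were chosen with earlier results of these data known. Genes named from the lists were the up to 3 called members with the largest change in each comparison, of which a selection is given, and like genes were the 5 with the highest correlation. Some symbols were matched through older names. Chromatin samples of the series were not analysed here. One marker gene is not reported here.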

Additional observations from a re-analysis of the deposited data

How the results depend on the processing

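Of the 25 called values, none changed direction under any alternative run. The called T-lineage steps are among them, and most of those stayed called in every alternative. The pooled counts that follow therefore make the genotype calls look steadier than they were. Omission of 1 sample gave 349 values for them, of which 302 stayed called and 47 did not, and the other alternatives gave 224, of which 204 stayed called. Among the values not called, 10 of 710 became called on omission of 1 sample and 28 of 484 under other alternatives, and 22 and 39 turned in sign. The cause was not tested for any of them. The members called were 1 of 12 in the central domain comparisons (0 to 1 on omission of 1 sample), 3 of 15 in the hemizygous and Pax5-deficient comparisons (1 to 6), 3 of 24 in the homozygous and gene dose comparisons (0 to 5), 5 of 9 in the Prd experiment (3 to 6) and 1 of 3 in the Rag2(-/-) libraries (0 to 1). The share of all genes called moved on omission of 1 sample as well. Central domain calls were 0 without a filter on low values, without a trend and with median ratio scaling, 2 with edgeR and 4 with DESeq2. In Pax5(DOP/DOP) against Pax5(DHD/DHD) these settings called 1.81%, 1.62%, 3.77%, 5.17% and 8.72% of all genes, beside 3.96% in the main fit. Against Pax5(+/+), DESeq2 called 8.13% in Pax5(DOP/DOP), 3.51% in Pax5(DHD/DHD) and 4.06% in Pax5(DOP,HD/DOP,HD). Hemizygous calls were 5 with edgeR and 6 with DESeq2, and homozygous calls 6 with DESeq2. Of all genes, edgeR called 0.782% in Pax5(DCRD2/-), 10.45% in Pax5(DCRD1/-), 21.7% in Pax5(DCRD1,2/-) and 30.9% in Vav-Cre Pax5(fl/fl) against wild type. DESeq2 called 1.88%, 13.7%, 22.6% and 32.7% in the same order. Calls in the Rag2(-/-) libraries were 0 with a pseudocount of 0.01, without a filter, without a trend, with median ratio scaling, with the replicate block and with the lower of the 2 rows.

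Replicate numbers did not pair the samples, since the deviations of same-numbered samples had median correlations of -0.10 to 0.031 per model, so that the block has no known meaning here. With the replicate block, in which read length was left out, 7 values were called in the hemizygous and 7 in the homozygous comparisons, Dntt in Pax5(DCRD1,2/DCRD1,2) was not called (adjusted p = 0.111), nor was Dntt in Vav-Cre Pax5(fl/fl) of the Prd experiment (0.0552). Against wild type this block called 2.38% of all genes in Pax5(DCRD2/-), 22.3% in Pax5(DCRD1/-), 41.55% in Pax5(DCRD1,2/-) and 30.3% in Vav-Cre Pax5(fl/fl). The main fit called 0.513%, 8.51%, 20.2% and 31.7% there. Values that turned with this block were, for Rag1, -0.054 in Pax5(DCRD2/-), -0.34 in Pax5(DCRD1/-), -0.25 in Pax5(DCRD2/DCRD2), 0.039 for the CRD1 dose and -0.12 for the interaction of dose, for Rag2, -1.12 in Pax5(DCRD2/-), -0.79 in Pax5(DCRD2/DCRD2) (adjusted p = 0.0104), 0.23 for the CRD1 dose, -0.65 in Pax5(DCRD1,2/DCRD1,2) against Pax5(DCRD1/DCRD1) (adjusted p = 0.0134) and -0.033 for the interaction, and for Dntt, 0.068 in Pax5(DCRD1,2/-) and -0.21 for the CRD1 dose. With read length left out and no block, they were -0.40 for Rag2 in Pax5(DCRD2/-), -0.071 for Rag2 in Pax5(DCRD2/DCRD2), 0.040 for Rag1 in Pax5(DCRD1/DCRD1), 0.039, 0.23 and -0.21 for Rag1, Rag2 and Dntt of the CRD1 dose, -0.65 for Rag2 against Pax5(DCRD1/DCRD1), and -0.12 and -0.033 for Rag1 and Rag2 of the interaction, and Dntt in Pax5(DCRD1,2/DCRD1,2) had an adjusted p of 0.0579.

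With Pax5(+/+) samples 1 and 2 left out, an alternative chosen after seeing the data for the members and for the gene lists, Rag1 turned to 0.0013 in Vav-Cre Pax5(fl/fl), 0.46 in Pax5(DCRD1/DCRD1), 0.34 for the CRD1 dose and -0.42 for the interaction, and Rag2 to 0.14 in Pax5(DCRD1/DCRD1), 0.43 for the CRD1 dose, -0.85 against Pax5(DCRD1/DCRD1) and -0.24 for the interaction. edgeR turned Rag1 in Pax5(DHD/DHD) to -0.0051, Rag2 in Pax5(DCRD2/-) to -0.057 and Dntt in Pax5(DCRD2/DCRD2) to -0.0097, and DESeq2 turned the last 2 to -0.059 and -0.0052. Median ratio scaling turned Rag2 in Pax5(DCRD2/-) to -0.049, Dntt in Pax5(DCRD2/DCRD2) to -0.0049, Rag1 in Pax5(DCRD1/DCRD1) to 0.021, Rag2 against Pax5(DCRD1/DCRD1) to -0.0026 and Rag1 of the interaction to -0.035. On omission of 1 sample, the log2 fold changes of Rag1 ran from -0.14 to 0.18 in Pax5(DOP/DOP), -0.076 to 0.11 in Pax5(DHD/DHD), -0.17 to 0.16 in Pax5(DOP,HD/DOP,HD), -0.15 to 0.17 for Pax5(DOP/DOP) against Pax5(DHD/DHD), -0.30 to 0.25 in Pax5(DCRD1/DCRD1), -0.43 to 0.12 for the CRD1 dose, -0.24 to 0.070 for the CRD1,2 dose and -0.20 to 0.34 for the interaction. Those of Rag2 ran from -0.26 to 0.28 in Pax5(DCRD2/-), -0.12 to 0.51 for the CRD1,2 dose and -0.24 to 0.48 against Pax5(DCRD1/DCRD1), and those of Dntt from -0.028 to 0.067 in Pax5(DCRD2/DCRD2).

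Limits are groups of 2 samples, read length that differs between some groups, sort gates that follow genotype and 1 wild-type group whose Rag2 level varied 2.65-fold. Depth limited none of the members in the Pax5 samples, which had at least 545 reads on each.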
